A study of Mus musculus with 37 samples.

Results

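The genes described are those of 5 receptors for lysophosphatidic acid (LPA), 3 receptors for sphingosine 1-phosphate (S1P) and the enzyme that makes extracellular LPA: Lpar1, Lpar2, Lpar3, Lpar4, Lpar6, S1pr1, S1pr2, S1pr3 and Enpp2. They were taken by symbol from a raw count table of 25239 gene rows, and all 9 were among the 15046 genes that passed a filter on low counts. The family was taken up because Lpar3 had been found lower in hearts with 1 null Nipbl allele, so the Lpar3 values in comparisons of Nipbl genotypes are a description: no p-value is given for them, and where Lpar3 is counted among members past a threshold, the count supports nothing. The other 8 members came in as part of the family, which was drawn up with earlier results of these data known.

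Hearts of E10.5 mouse embryos were profiled by bulk RNA sequencing with paired ends. Nipbl encodes a cohesin loader and Isl1 a transcription factor of cardiac progenitors. Fathers were Stra8-iCre; Nipbl Flox/+, whose sperm carried either the Flox allele, which works as wild-type, or the null FIN allele. Mothers were Isl1 Cre/+, with Cre in 1 Isl1 allele and haploinsufficient for Isl1. Embryos were Nipbl +/+; Isl1 +/+ (wild-type, n = 10), Isl1 +/- (Isl1_het, n = 9), Nipbl +/- (Nipbl_het, n = 9) or Nipbl +/-; Isl1 +/- (double_het, n = 9). The null allele was inherited and was thus present throughout the embryo, not in the heart alone, and by the design text the embryos with a working paternal Nipbl allele carried it as Flox. Isl1_het embryos thus carried Cre beside a Flox Nipbl allele. Whether Cre acted on that allele in their hearts was not tested. In comparisons that use Isl1_het, such an action and the loss of 1 Isl1 allele cannot be told apart. The labels do not say whether libraries came from separate embryos or litters, so p-values measure the spread between these libraries.

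LPA and S1P are lysophospholipids that signal outside cells through G-protein-coupled receptors. LPA receptors fall into the EDG family (Lpar1, Lpar2, Lpar3), to which the S1P receptors also belong, and the P2Y-like family (Lpar4, Lpar6). The receptors couple through Gi, Gq and G12/13 proteins, which differ in the signals they pass on. Autotaxin, the product of Enpp2, cleaves lysophosphatidylcholine to LPA. In embryos this system is best known from blood vessels: S1P receptors steady new vessels and help the heart tube form, and mice without autotaxin die with vascular defects.

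The start regions of 3 LPA receptor genes are printed because they span the range seen in the family: Lpar3, the member with the clearest genotype difference, Lpar1, its EDG relative with values near 0 in every comparison, and Lpar6, the P2Y-like receptor with the fewest CpG dinucleotides. Each run covers 250 bases before and 50 after a RefSeq start (GRCm38.p6) and is written 5′ to 3′ on the strand of the gene. Capitals mark the GC box, searched as GGGCGG on both strands, so that CCGCCC marks a match on the opposite strand. The runs lie at chr3:146220711-146221010 (plus strand) for Lpar3, chr4:58553244-58553543 (minus strand) for 1 of the 3 listed starts of Lpar1 and chr14:73237641-73237940 (plus strand) for Lpar6.
Lpar3: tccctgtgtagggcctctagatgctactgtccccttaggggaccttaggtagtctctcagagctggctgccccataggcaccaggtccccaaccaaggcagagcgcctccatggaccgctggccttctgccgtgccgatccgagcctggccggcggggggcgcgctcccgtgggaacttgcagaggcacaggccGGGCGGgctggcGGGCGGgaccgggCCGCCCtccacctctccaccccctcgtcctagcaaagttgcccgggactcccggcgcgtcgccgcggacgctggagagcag
Lpar1: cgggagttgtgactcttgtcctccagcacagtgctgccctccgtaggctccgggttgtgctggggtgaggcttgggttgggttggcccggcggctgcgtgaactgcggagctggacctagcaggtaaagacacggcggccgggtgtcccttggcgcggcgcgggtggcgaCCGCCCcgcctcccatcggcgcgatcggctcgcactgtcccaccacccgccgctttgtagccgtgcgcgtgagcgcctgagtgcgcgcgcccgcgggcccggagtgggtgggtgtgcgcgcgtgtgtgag
Lpar6: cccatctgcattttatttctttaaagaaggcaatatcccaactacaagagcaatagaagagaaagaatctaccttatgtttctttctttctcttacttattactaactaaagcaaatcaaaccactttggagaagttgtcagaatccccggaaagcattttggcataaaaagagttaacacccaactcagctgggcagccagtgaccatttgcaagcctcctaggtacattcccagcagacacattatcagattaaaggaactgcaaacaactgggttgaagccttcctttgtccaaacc
The Lpar3 run holds 3 GC boxes and 25 CpG, more than 81.6% of 32851 RefSeq start regions of the same length. The Lpar1 run holds 1 GC box and 37 CpG, the most of its 3 listed starts (the others hold 14 CpG with 1 GC box and 3 CpG with none), and Lpar6 holds none of these boxes and 1 CpG. A GC box occurs in 35.7% of all such regions, and the median number of CpG is 7. Lpar2, S1pr2 and S1pr3 each hold 1 GC box and 14 to 18 CpG. The X-linked Lpar4 holds 1 GC box, 6 CpG and 1 TATA box (TATAAA, either strand), which 13.6% of regions hold. A TEAD-type match (GGAATG, either strand, in 14.7% of regions) was found in Lpar6 among the members. GATA-type (AGATAA, in 11.2%), LIM-homeodomain-type (CTAATG, in 7.36%) and T-box-type (AGGTGTGA, in 1.28%) letters were found in 0 of the 9 member regions searched. These are matches of letters in a window and say nothing of binding. The 9 regions belong to 7 members; no start region of Enpp2 or S1pr1 was used here.

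In GRCm38 coordinates of GENCODE M21 the EDG-family LPA receptor genes lie at chr4:58435255-58553898 (Lpar1, minus strand), chr8:69822429-69831102 (Lpar2, plus strand) and chr3:146220963-146286186 (Lpar3, plus strand). Their proteins are encoded by 3, 2 and 2 coding exons. Lpar4 (chrX:106920625-106933900, plus strand) and Lpar6 (chr14:73237895-73243294, plus strand) each have a single coding exon, as have S1pr1 (chr3:115710433-115715072, minus strand), S1pr2 (chr9:20962361-20976781, minus strand) and S1pr3 (chr13:51408639-51422797, plus strand). Enpp2 (chr15:54838901-54952892, minus strand) has 28. Lpar6 lies within the tumour suppressor gene Rb1 on the opposite strand and shares 408 exon bases with it. Rb1 stood at 7.72 CPM (counts per 1000000 counts of the TMM-scaled library total) in wild-type, and the strand setting of the counting is not given in the sources used here, so Lpar6 values are uncertain. Enpp2 shares 345 exon bases with Gm26684, which stood at 0.00268 CPM, and S1pr3 shares 45 with Gm32834.

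Library totals ran from 23.4 to 51.0 M counts (M, mega), with a median of 36.2. Each library carries a set number: sets 2, 5 and 6 held all 4 genotypes, 6 libraries of set 1 came from wild-type (3) and Isl1_het (3), and set 7 was a single double_het library, which its own set term fits exactly, so that fitted double_het comparisons rest on 8 libraries. Nipbl checks the labels. Mean Nipbl was 60.0 CPM in wild-type, 61.5 in Isl1_het, 39.3 in Nipbl_het and 38.1 in double_het, with SDs of 10.1 (n = 10), 5.88, 13.8 and 7.41 (n = 9 each). The library labelled Nipbl_het replicate 2 went against its label, with 72.4 CPM of Nipbl, and it stood apart on the first principal component (absolute score 114, against 40.2 for the next library). It held the highest or lowest Nipbl_het value of 7 of the 9 members. Mean Isl1 was 7.37 CPM in wild-type (SD 2.24, n = 10) and 6.28 in Isl1_het (SD 1.76, n = 9), a log2 change of -0.20 (SE 0.18, edgeR adjusted p 0.877), so the Isl1 label was not borne out by a change past the threshold. Isl1 was higher with 1 null Nipbl allele: its mean was 13.0 CPM in Nipbl_het (log2 change 0.79, SE 0.19, edgeR adjusted p 0.0252) and 9.5 in double_het, above wild-type although 1 Isl1 allele was lost (0.32, SE 0.20, adjusted p 0.591), and the averaged Nipbl effect was 0.65 (SE 0.15, adjusted p 0.00655). Markers of heart muscle, endocardium and epicardium were present in every genotype (0 of the 8 endothelial, 7 cardiomyocyte and 7 epicardial markers had a mean under 1 CPM in any group).

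S1pr1 and Lpar3 were the most abundant members per length. In wild-type hearts S1pr1, the vascular S1P receptor, stood at 28.4 ± 3.67 CPM per kilobase of exon (SD, n = 10), with libraries from 21.8 to 34.7. Lpar3 stood at 21.4 ± 2.36 (SD, n = 10), with libraries from 16.4 to 24.1. Their ranges overlap, and both genes lay above every library value of the other 7 members.

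S1pr3 followed at 4.60 ± 1.12 CPM per kilobase (SD, n = 10), S1pr2 at 4.27 ± 0.58 and Lpar1 at 3.19 ± 0.626. Lpar6 stood at 2.10 ± 0.151, Lpar2 at 1.79 ± 0.381 and Lpar4 at 1.71 ± 0.283. Ranges of neighbours in this order overlapped for S1pr3, S1pr2 and Lpar1, and likewise for Lpar6, Lpar2 and Lpar4. Enpp2 was lowest at 0.0993 ± 0.0284, with 7 to 42 raw counts per library over all 37 libraries. By length of coding sequence instead of exon, S1pr2 (32.2 CPM per kilobase) stood above S1pr3 (18.1).

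**Figure D1:**
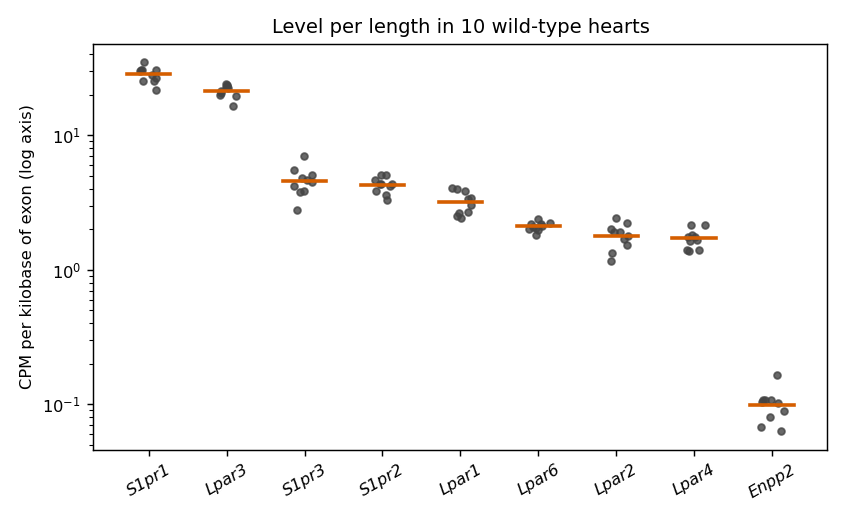
Level of the 9 members in CPM per kilobase of exon on a log axis in the 10 wild-type hearts, each point a library and each bar the mean. S1pr1 and Lpar3 stand above the other receptors, and Enpp2 lies far below them at a mean of 0.0993.

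Each genotype was compared with wild-type with the edgeR quasi-likelihood test, set number as a covariate and p-values adjusted over all 15046 genes; a gene is called changed at an adjusted p under 0.05. Between Nipbl_het and wild-type 1 of 9 members passed, Lpar3, and across all genes 1.71% passed (0.518% lower). Between double_het and wild-type Lpar3 again was the 1 of 9 members to pass, beside 2.60% of all genes (0.824% lower). Both comparisons use the same wild-type libraries, and the family was taken up for these Lpar3 differences, so nothing is read from the counts. The shares over all genes moved with the fit and with single libraries. Of 15046 genes, 21 (fitted with only the groups compared) to 1403 (with 2 surrogate variables) were called in Nipbl_het, and 67 (without set 5) to 1737 (with 2 surrogate variables) in double_het. Without the library labelled Nipbl_het replicate 2, the genes called went from 258 to 410 in Nipbl_het, from 391 to 839 in double_het, from 144 to 361 in double_het against Isl1_het and from 605 to 1044 for the Nipbl effect averaged over Isl1 genotypes. Without Nipbl_het replicate 9 Nipbl_het had 167, and without double_het replicate 4 double_het had 244. In double_het against Isl1_het, leaving out Isl1_het replicate 5, 6, 7 or 9 or double_het replicate 3, 4, 6 or 8 gave 73 to 88. The median log2 change of the members was 0.05 in Nipbl_het and -0.01 in double_het, beside 0.00797 and -0.00195 over all genes tested. In such bulk samples, fewer cells of a type and less RNA per cell cannot be told apart.

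**Figure D2:**
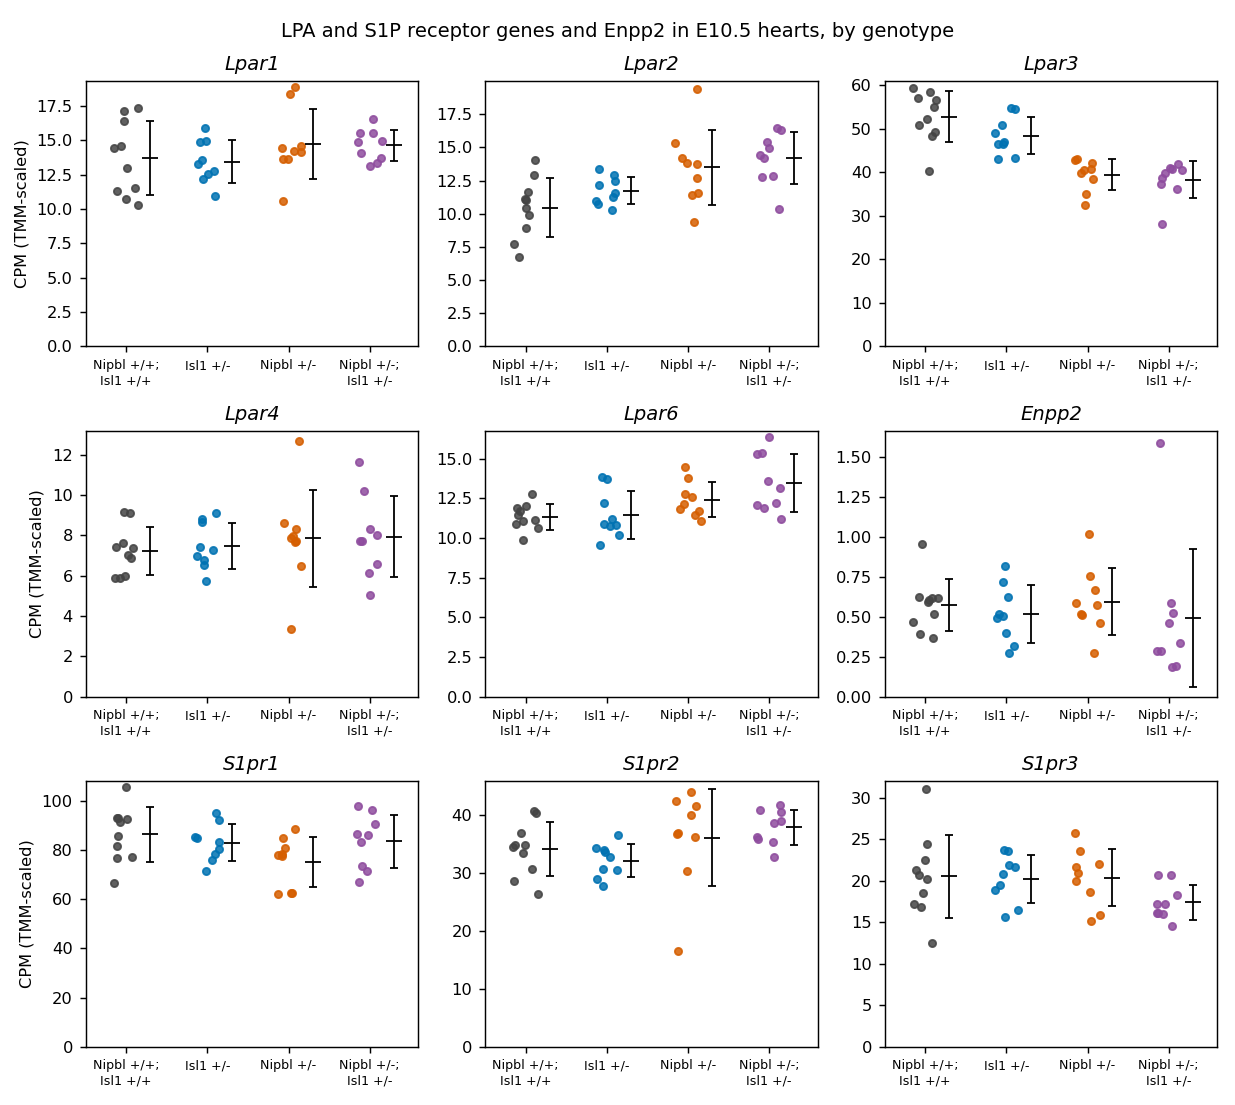
CPM after TMM scaling of each member in every library, by genotype (10 wild-type and 9 libraries of each other genotype). Points are libraries, and the bars beside them give the mean and SD. Lpar3 libraries of both Nipbl +/- genotypes lie below the wild-type mean of 52.8, though wild-type replicate 7 at 40.3 overlaps them, and the genotypes overlap in the other panels too.

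Enpp2, the LPA-producing enzyme, was too low to compare closely. Wild-type libraries ran from 0.365 to 0.953 CPM with a median of 0.597, Nipbl_het libraries from 0.273 to 1.01 with a median of 0.570, and double_het libraries from 0.183 to 1.58 with a median of 0.337. The highest value of all belonged to a double_het library, replicate 8, although 5 of 9 double_het libraries lay under the lowest wild-type one. For Enpp2 the log2 change was 0.18 (SE 0.28) in Nipbl_het and -0.18 (SE 0.29) in double_het, with edgeR adjusted p-values of 0.801 and 0.884. The 95% interval in double_het ran from -0.75 to 0.40, but the value turned on few libraries: it was -0.59 without double_het replicate 8, -0.01 without wild-type replicate 8, -0.78 without set 2 and 0.59 without set 5, and none of these passed. In Nipbl_het it was 0.39 without wild-type replicate 8, 0.10 without wild-type replicate 10 and -0.09 without set 2, none past the threshold.

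Lpar3, an EDG-family LPA receptor known from uterine implantation, was lower in both Nipbl +/- genotypes. Wild-type libraries ran from 40.3 to 59.4 CPM with a median of 53.6, and Isl1_het libraries from 43.1 to 54.7 with a median of 47.1. Nipbl_het libraries ran from 32.5 to 43.1 CPM with a median of 40.6, and double_het libraries from 28.2 to 42.0 with a median of 39.8. All 9 libraries of each Nipbl +/- genotype lay below the wild-type mean, and all lay below every Isl1_het library. They overlap wild-type through 1 library, wild-type replicate 7 at 40.3 CPM, below which lay 4 of 9 Nipbl_het and 5 of 9 double_het libraries. The mean of Lpar3 was 52.8 ± 5.83 CPM for wild-type (SD, n = 10), 48.4 ± 4.30 in Isl1_het (SD, n = 9), 39.5 ± 3.58 in Nipbl_het (SD, n = 9) and 38.3 ± 4.23 in double_het (SD, n = 9).

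The fitted log2 change of Lpar3 was -0.43 (SE 0.06) in Nipbl_het, or 0.741 of the wild-type level, and -0.50 (SE 0.07) in double_het, or 0.708 of it. Against Isl1_het, double_het stood at -0.35 (SE 0.07). The effect of 1 null Nipbl allele averaged over both Isl1 genotypes was -0.39 (SE 0.05). These values describe the difference for which Lpar3 was chosen.

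In Isl1_het hearts, which carried Cre beside a Flox Nipbl allele, Lpar3 was also under wild-type, by a smaller amount that missed the threshold. The log2 change in Isl1_het was -0.15 (SE 0.06, 95% interval -0.26 to -0.03), and it did not pass over all genes (edgeR adjusted p 0.790). Under the wild-type mean lay 7 of 9 Isl1_het libraries, and 0 of 9 lay under the lowest wild-type library. Between double_het and Nipbl_het Lpar3 differed by -0.06 (SE 0.06, edgeR adjusted p 0.786). The departure of double_het from the sum of both single changes was 0.08 (SE 0.09, 95% interval -0.09 to 0.25). Averaged over Nipbl genotypes, the Isl1 effect was -0.11 (SE 0.04, edgeR adjusted p 0.327).

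Each set was also compared by itself. In mean log2 CPM, Nipbl_het differed from wild-type by -0.51 in set 2, -0.42 in set 5 and -0.31 in set 6. For double_het the same differences were -0.57, -0.50 and -0.30. The same sign held in each of the 3 sets, and within each of them every Nipbl +/- library lay below every wild-type and Isl1_het library. Lowest of all were libraries of set 2, at 28.2 CPM in double_het replicate 8 and 32.5 in Nipbl_het replicate 3, and the lowest wild-type library was also of set 2. Wild-type replicate 7, Isl1_het replicate 4 and double_het replicate 8, the lowest Lpar3 libraries of their genotypes, also had the highest summed erythroid markers of theirs, at 106000, 48300 and 54100 CPM. In Nipbl_het the highest sum, 23400 CPM, was in replicate 7 and the lowest Lpar3 in replicate 3. This was not particular to Lpar3. Wild-type replicate 7, Isl1_het replicate 4 and double_het replicate 8 were also the lowest Lpar2 libraries of their genotypes. Wild-type replicate 7 and double_het replicate 8 were the lowest S1pr1 libraries of theirs. The 6 erythroid markers were all below 0 in Nipbl_het (median -0.84) and all above 0 in double_het (median 0.71), with 0 called, while Lpar3 was lower in both. The part of blood content was not tested. When the library labelled Nipbl_het replicate 2 was left out, Lpar3 stood at -0.43 (SE 0.06) in Nipbl_het.

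**Figure D3:**
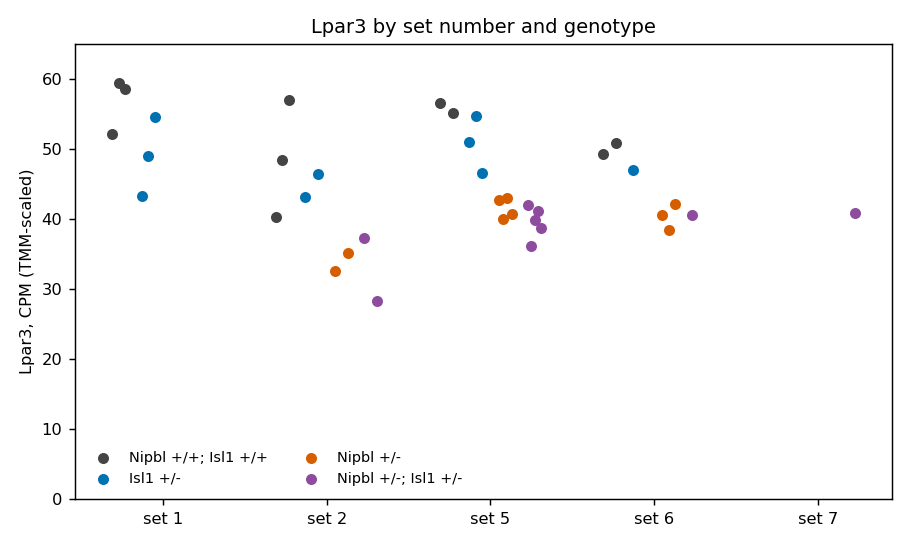
Lpar3 in CPM after TMM scaling for each of the 37 libraries, arranged by set number and coloured by genotype. Within each of sets 2, 5 and 6 the Nipbl +/- libraries lie below those with 2 working Nipbl alleles, and the double_het library of set 2 at 28.2 CPM is the lowest of all.

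Markers of several cell types differed in the same comparisons as Lpar3. The marker lists were chosen with earlier results of these data known, so counts of calls in them are a description. Mycn is also among the 5 genes most like Lpar3. Of 6 ventricular markers, 2 fell in Nipbl_het and 3 in double_het against wild-type, beside 0.518% and 0.824% of all genes called lower, and all 6 had log2 changes below 0 in both. Mycn, a growth-promoting factor of compact ventricular muscle, fell by 0.47 (SE 0.08) in Nipbl_het and 0.50 (SE 0.08) in double_het on the log2 scale, with edgeR adjusted p-values of 4.21e-04 and 1.98e-04. Irx4, a ventricular transcription factor, fell by 0.47 (SE 0.12) and 0.50 (SE 0.13), with edgeR adjusted p-values of 0.0326 and 0.0241. Hey2, a transcriptional repressor of ventricular muscle, fell in double_het by 0.42 (SE 0.11, edgeR adjusted p 0.0360). In Isl1_het, where the Lpar3 value was -0.15, all 6 were also below 0 and 0 were called, with a median of -0.25 beside -0.26 in Nipbl_het and -0.38 in double_het. The summed ventricular markers nevertheless overlapped, from 4430 to 9650 CPM in wild-type, 3350 to 8200 in Nipbl_het and 3880 to 9170 in double_het. Of 7 epicardial markers 1 rose in Nipbl_het (Wt1), where 1.71% of all genes were called in either direction. In double_het 5 rose by 0.38 to 0.73 on the log2 scale (Wt1, Tbx18, Upk3b, Upk1b and Sema3d). There 1.77% of all genes were called higher. The sum of the 7 markers ran from 261 to 463 CPM in wild-type and from 519 to 674 in double_het, without overlap. Sums of 407 to 614 CPM in Nipbl_het and 307 to 553 in Isl1_het overlapped wild-type. None of these 13 markers had a mean under 1 CPM in any group. Of 7 general cardiomyocyte markers 6 were below 0 in Nipbl_het (median -0.18) and all 7 in double_het (median -0.14), with 0 called. Of 6 atrial markers Sln, a regulator of the calcium pump, rose by 1.84 (SE 0.40) in Nipbl_het and 2.23 (SE 0.42) in double_het, and of 4 smooth muscle markers the myosin gene Myh11 rose by 1.36 (SE 0.30) and 1.68 (SE 0.32), with edgeR adjusted p-values of 0.0109, 0.00168, 0.0126 and 0.00168. These calls stand beside 1.71% of all genes called in either direction in Nipbl_het and 1.77% called higher in double_het. Of the 6 atrial markers 5 were above 0 in Nipbl_het (median 0.30) and 5 in double_het (median 0.17). Of the 4 smooth muscle markers 1 was above 0 in Nipbl_het (median -0.06) and 2 in double_het (median 0.03). A mean under 1 CPM was found for 1 atrial marker in wild-type and 0 in the other groups, and for 0 smooth muscle markers in any group. Of 5 neural tube markers tested Pax6 rose in Nipbl_het by 0.93 (SE 0.23, edgeR adjusted p 0.0231), and Pax6 and Tubb3 rose with the averaged Nipbl effect, while the other 3 were below 0 in both, with list medians of -0.08 and -0.09. Over all genes 1.71% were called in either direction in Nipbl_het, and 2.67% were called higher for the averaged effect. Many neural tube markers were low: of 6 listed, 3 had a mean under 1 CPM in wild-type and 4 in each other genotype. The part of cell composition in the Lpar3 difference was not tested.

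Lpar2, an EDG-family LPA receptor with a widespread low level, had values above the wild-type mean in most libraries of each other genotype. Wild-type libraries ran from 6.78 to 14.0 CPM with a median of 10.8, Isl1_het from 10.3 to 13.4 with a median of 11.6, Nipbl_het from 9.34 to 19.4 with a median of 13.7, and double_het from 10.4 to 16.5 with a median of 14.4. The genotypes overlap, although 8 of 9 libraries of each Nipbl +/- genotype, and also 8 of 9 of Isl1_het, lay above the wild-type mean. Above every wild-type library lay 6 of 9 double_het, 3 of 9 Nipbl_het and 0 of 9 Isl1_het libraries. Lpar2 changed by 0.29 (SE 0.11, edgeR adjusted p 0.199) in Nipbl_het and 0.36 (SE 0.12, edgeR adjusted p 0.113) in double_het on the log2 scale, so neither passed. In double_het it passed without the library labelled Nipbl_het replicate 2 (0.36, adjusted p 0.0406), which is the highest Lpar2 library, at 19.4 CPM. It also passed without a set term (0.44, adjusted p 0.0217), with the replicate block in place of the set number (0.46, adjusted p 0.0216) and with 2 surrogate variables (0.31, adjusted p 0.0145). The averaged Nipbl effect on Lpar2 passed in these same 3 fits and without Nipbl_het replicate 8 (0.28, adjusted p 0.0413). By set (2, 5 and 6), Nipbl_het differed from wild-type by 0.52, 0.33 and -0.06, and double_het by 0.48, 0.34 and 0.29. The lowest Lpar2 libraries of wild-type (replicate 7), Isl1_het (replicate 4) and double_het (replicate 8) had the highest summed erythroid markers of their genotypes. In Nipbl_het the highest sum was in replicate 7 and the lowest Lpar2 in replicate 8. The part of blood content in the Lpar2 values was not tested.

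Lpar1, the EDG-family LPA receptor of mesenchyme and neural progenitors, showed no genotype difference past the threshold. Its libraries ran from 10.3 to 17.3 CPM in wild-type (median 13.7), from 11.0 to 15.9 in Isl1_het (median 13.3), from 10.6 to 18.9 in Nipbl_het (median 14.2) and from 13.1 to 16.5 in double_het (median 14.8). The genotypes overlapped throughout. The log2 change was -0.03 (SE 0.08, 95% interval -0.18 to 0.13, edgeR adjusted p 0.907) in Nipbl_het and -0.01 (SE 0.08, 95% interval -0.17 to 0.15, edgeR adjusted p 0.983) in double_het. These intervals leave out a change of the size described for Lpar3.

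Lpar4 and Lpar6 are the P2Y-like LPA receptors, both known for roles in developing vessels. Lpar4 libraries ran from 5.87 to 9.19 CPM in wild-type (median 7.19), from 3.36 to 12.7 in Nipbl_het (median 7.86) and from 5.05 to 11.6 in double_het (median 7.72). The Nipbl +/- genotypes spread to both sides of wild-type, and the lowest value was in the library labelled Nipbl_het replicate 2. The log2 change was 0.06 in both genotypes (SE 0.15 and 0.16), with edgeR adjusted p-values of 0.879 and 0.934. Its sign turned with single libraries: in Nipbl_het it was -0.02 without replicate 8 and 0.15 without replicate 2, and in double_het -0.07 without replicate 8 and 0.14 without replicate 6.

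Lpar6 libraries ran from 9.86 to 12.8 CPM in wild-type (median 11.3), from 11.1 to 14.5 in Nipbl_het (median 12.1) and from 11.2 to 16.4 in double_het (median 13.2). Of 9 double_het libraries 8 lay above the wild-type mean and 5 above every wild-type library. Lpar6 changed by 0.09 (SE 0.08, edgeR adjusted p 0.592) in Nipbl_het and 0.20 (SE 0.08, edgeR adjusted p 0.262) in double_het on the log2 scale. Neither passed over all genes, and without Nipbl_het replicate 9 the Nipbl_het value was 0.05. The averaged Nipbl effect on Lpar6 was 0.13 (edgeR adjusted p 0.243) and passed with no set term (0.18, adjusted p 0.0399), with the replicate block in place of the set number (0.18, adjusted p 0.0305) and without set 5 (0.25, adjusted p 0.0424), and reads of Rb1 on the opposite strand may be included.

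S1pr1, the Gi-coupled receptor that steadies new vessels, came next to the threshold in Nipbl_het. Wild-type libraries ran from 66.5 to 106 CPM with a median of 88.6, Isl1_het from 71.4 to 95 with a median of 83.2, Nipbl_het from 62.3 to 88.8 with a median of 78.0, and double_het from 67.1 to 97.9 with a median of 86.1. The genotypes overlap. Under the wild-type mean lay 8 of 9 Nipbl_het, 7 of 9 Isl1_het and 5 of 9 double_het libraries. Under the lowest wild-type library lay 3 Nipbl_het, 0 Isl1_het and 0 double_het libraries. The lowest S1pr1 libraries of wild-type (replicate 7) and double_het (replicate 8) had the highest summed erythroid markers of their genotypes. In Isl1_het and Nipbl_het the lowest S1pr1 was in replicates 1 and 2, and the highest sum in replicates 4 and 7. The part of blood content in the S1pr1 values was not tested. The log2 change in Nipbl_het was -0.27 (SE 0.07, 95% interval -0.41 to -0.12, edgeR adjusted p 0.0510). It passed with DESeq2 (-0.28, adjusted p 0.0133), and in edgeR with DESeq2-style size factors (-0.28, adjusted p 0.0406), with 2 surrogate variables (-0.23, adjusted p 0.0204) or without wild-type replicate 1, 4 or 7 or Nipbl_het replicate 1 or 8. Without the library labelled Nipbl_het replicate 2 it was -0.24 (adjusted p 0.0605). S1pr1 thus passed in 3 of 16 alternative fits and in 5 of 37 fits with a single library left out. In the rest it did not pass, with edgeR adjusted p-values of up to 0.656. Over the 16 alternatives the change ran from -0.33 (without set 6) to -0.19 (with the replicate block in place of the set number).

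In double_het the log2 change of S1pr1 was -0.12 (SE 0.08, edgeR adjusted p 0.601), and between double_het and Nipbl_het it was 0.15 (SE 0.07, edgeR adjusted p 0.558). The departure from the sum of both single changes was 0.22 (SE 0.10, edgeR adjusted p 0.999), so a difference between the genotypes in their S1pr1 change did not pass. Within sets 2, 5 and 6 Nipbl_het differed from wild-type by -0.37, -0.18 and -0.15, and double_het by -0.22, 0.03 and -0.10. Of 8 endothelial and endocardial markers, cells known for S1pr1, none was called in either genotype, with sums from 621 to 875 CPM in wild-type, 673 to 961 in Nipbl_het and 664 to 1070 in double_het. In Nipbl_het 4 of the 8 were above 0 (median -0.02), in double_het 7 of 8 (median 0.16), and between double_het and Nipbl_het 7 of 8 (median 0.16, beside 0.15 for S1pr1); their part in the S1pr1 values was not tested.

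S1pr2, the S1P receptor coupled to G12/13 and needed for heart tube formation in zebrafish, was spread widely in Nipbl_het. Libraries ran from 26.2 to 40.6 CPM in wild-type (median 34.5), from 27.7 to 36.5 in Isl1_het (median 32.7), from 16.5 to 43.9 in Nipbl_het (median 36.8) and from 32.6 to 41.7 in double_het (median 38.6). The lowest value, 16.5 CPM, was in the library labelled Nipbl_het replicate 2, and the next Nipbl_het library lay at 30.3. The log2 change was 0.05 (SE 0.11, edgeR adjusted p 0.854) in Nipbl_het and 0.17 (SE 0.11, edgeR adjusted p 0.622) in double_het against wild-type, and 0.24 (SE 0.11, edgeR adjusted p 0.556) in double_het against Isl1_het. Without that library, the change in Nipbl_het was 0.14 and did not pass, the change against Isl1_het was 0.23 (adjusted p 0.0347) and the Nipbl effect averaged over Isl1 genotypes 0.19 (adjusted p 0.00771), both past the threshold, while with it the averaged effect was 0.15 (SE 0.08, adjusted p 0.409). The averaged effect also passed with 2 surrogate variables (0.20, adjusted p 3.77e-04) and without set 5 (0.26, adjusted p 0.0370), as did double_het against wild-type with 2 surrogate variables (0.19, adjusted p 0.0139). With 2 surrogate variables double_het against Isl1_het passed too (0.26, edgeR adjusted p 0.00174).

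S1pr3, an S1P receptor of vessels and heart muscle, had its lowest median in double_het, although its lowest library was of wild-type. Libraries ran from 12.5 to 31.0 CPM in wild-type (median 20.4), from 15.6 to 23.7 in Isl1_het (median 20.9), from 15.1 to 25.7 in Nipbl_het (median 21) and from 14.5 to 20.7 in double_het (median 17.2). The double_het range lies inside that of wild-type, with 7 of 9 libraries under the wild-type mean. For S1pr3 the log2 change was -0.11 (SE 0.11, edgeR adjusted p 0.656) in Nipbl_het and -0.30 (SE 0.11, edgeR adjusted p 0.217) in double_het, and neither passed. The Nipbl_het value was -0.03 without wild-type replicate 6, -0.18 without Nipbl_het replicate 9 and 0.01 without set 6.

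**Figure D4:**
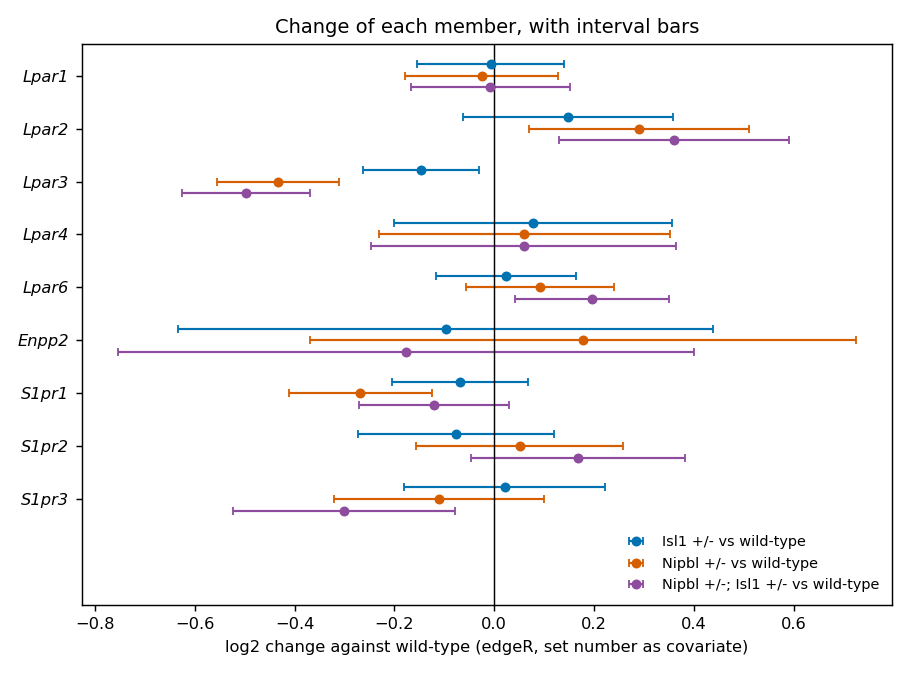
Fitted log2 change of each member against wild-type in Isl1_het, Nipbl_het and double_het, with bars of 1.96 SE on each side. Lpar3 lies at -0.43 and -0.50 in the Nipbl +/- genotypes, the S1pr1 bar of Nipbl_het ends at -0.12, and the Enpp2 bars are the widest.

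No member passed in Isl1_het against wild-type, in double_het against Nipbl_het or in the test of non-additivity. In these comparisons 0% of all genes passed, with 886, 1355 and 411 genes at an unadjusted edgeR p under 0.05. With DESeq2 11 genes and with 2 surrogate variables 9 genes passed in Isl1_het, and 5 in double_het against Nipbl_het with 2 surrogate variables. For the Isl1 effect averaged over Nipbl genotypes, 0.173% of genes and 0 of 9 members passed. The 26 genes behind this share became 4 to 73 with single libraries left out. They became 0 with no set term or without set 1, 2 or 5, and 220 with 2 surrogate variables. Lpar3 was again the 1 member past the threshold in double_het against Isl1_het (0.957% of all genes, 0.425% lower) and for the averaged Nipbl effect (4.02%, 1.36% lower), comparisons that reuse the libraries by which it was chosen. Outside Lpar3, changes in Isl1_het ran from -0.10 for Enpp2 to 0.15 for Lpar2.

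Set number was associated with 4 of 9 members, beside 38.2% of all genes. These were Lpar1 (edgeR adjusted p 0.00114), Lpar3 (0.0127), S1pr1 (0.0133) and S1pr3 (0.0425). Lpar1 stood at 11.6 ± 1.00 CPM in set 1 (SD, n = 6) and 16.0 ± 1.52 in set 6 (SD, n = 7), ranges of 10.3 to 12.8 and 14.2 to 18.4 that do not overlap. S1pr1 ran from 62.4 to 92.7 CPM in set 2 (mean 73.7, n = 9) and from 78.0 to 93.1 in set 6 (mean 87.1, n = 7). Set 1 held no Nipbl +/- hearts, so Lpar3 means of sets are not compared. The set number is the number after IVF in the sample labels, which do not say whether it marks an IVF round, a litter or a day.

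Lpar3 and S1pr1 varied together beyond genotype and set. After both were subtracted from log2 CPM, 36 pairs of members were compared over the 36 libraries outside set 7. The residuals of Lpar3 and S1pr1 had Pearson's r = 0.600 (adjusted p 0.00324 over the 36 pairs) and a Spearman correlation of 0.593 (adjusted p 0.0072), from permutation tests with 100000 resamples. Without the 2 libraries farthest from the Lpar3 median, r was 0.540, and without the library labelled Nipbl_het replicate 2 it was 0.612. Within sets 1, 2, 5 and 6 r was 0.654 (n = 6), 0.822 (n = 9), 0.377 (n = 14) and 0.592 (n = 7). The values of a library share its depth and cell composition. The permutations treat residuals of the genotype and set fit as exchangeable, which they are not exactly, so the permutation p-values of all pairs are approximate.

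Of the other pairs, Lpar4 and S1pr2 had r = 0.604 (permutation, adjusted p 0.0329), with a Spearman correlation of 0.379 (adjusted p 0.266). That relation rests on single libraries: r was 0.217 without the 2 farthest and 0.228 without the library labelled Nipbl_het replicate 2. Lpar2 and Lpar4 had r = -0.539 (permutation, adjusted p 0.0131), with a Spearman correlation of -0.349 (adjusted p 0.266), and r was -0.412 without the 2 farthest. Within the 4 sets r ran from -0.676 to -0.476 for this pair.

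**Figure D5:**
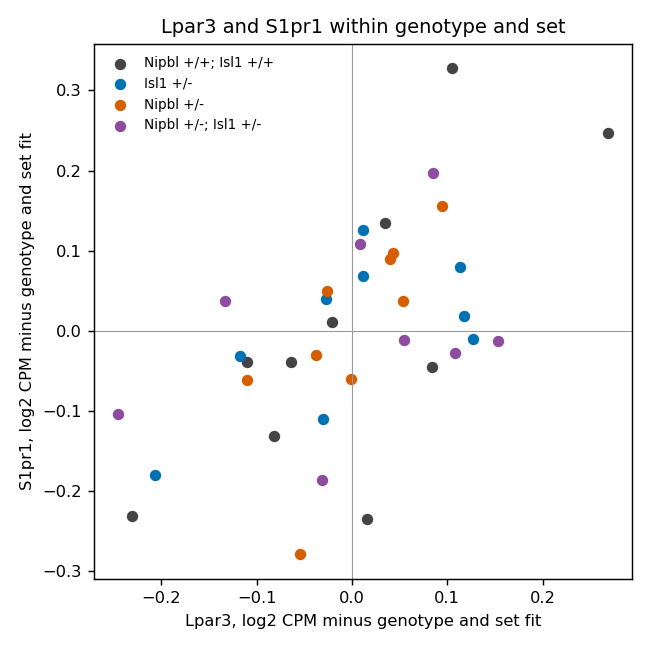
Residual log2 CPM of S1pr1 against that of Lpar3 after subtraction of genotype and set effects, for the 36 libraries outside set 7, coloured by genotype. Over the 36 points r was 0.600, and r within each genotype was not computed.

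The genes most like Lpar3 across 36 libraries, by Pearson's r of log2 CPM minus the set mean among 12079 genes, were Sobp (r = 0.850), Slitrk5 (0.837), 1110032F04Rik (0.837), Mycn (0.833) and Thbs4 (0.814). Genotype differences enter these values. All 5 were lower in Nipbl +/- hearts: the log2 change in double_het against wild-type was -0.84 for Sobp, -1.09 for Slitrk5, -0.43 for 1110032F04Rik, -0.50 for Mycn and -0.42 for Thbs4, given as a description since they were picked by likeness to Lpar3. Without subtracting the set mean, 2 of the 5, Mycn and Thbs4, were again among the nearest. S1pr1 was most like Mest (r = 0.863), an imprinted gene of mesoderm, Fgl2 (0.823) and Mid2 (0.815). Lpar2 was most like Nfic (0.849), Adamtsl4 (0.847) and Mov10 (0.837), and Lpar4 was most like Rnf168 (0.860), Arxes1 (0.849) and Angel2 (0.846). S1pr2 was most like Cd248 (0.889, Spearman 0.605), a marker of perivascular mesenchyme, Sptlc2 (0.867, Spearman 0.677), a subunit of the enzyme that starts sphingolipid synthesis, and Olfml3 (0.862, Spearman 0.625), values that include the outlying S1pr2 library. Without subtracting the set mean, Mest, Angel2 and Sptlc2 stayed among the 3 nearest genes of their member, and the others named for S1pr1, Lpar2, Lpar4 and S1pr2 did not. The nearest to the other members were 2610008E11Rik for Lpar1 (0.695), Flrt3 for S1pr3 (0.669), Tspan12 for Lpar6 (0.645) and Ephx2 for Enpp2 (0.612).

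Of 28 further genes of LPA and S1P metabolism and signalling, 25 were tested, and 0 passed in Nipbl_het against wild-type, 1 in double_het against wild-type and 2 for the averaged Nipbl effect, beside 1.71%, 2.60% and 4.02% of all genes. Their median log2 change was 0.14 in Nipbl_het and 0.10 in double_het, with 17 and 18 of 25 above 0. These counts moved with the fit. In Nipbl_het 3 passed with no set term or with 2 surrogate variables (Gpr35, Sgpl1 and Apom) and 2 with DESeq2. The count was 1 with Xist as a covariate (Gpr35), without set 6 (Apom), without wild-type replicate 7 or Nipbl_het replicate 1, 5 or 9 (Gpr35) and without Nipbl_het replicate 7 (S1pr4). Apom, the S1P carrier, ran from 0.099 to 7.28 CPM in Nipbl_het with a median of 0.168, and the highest library, Nipbl_het replicate 9, also had the highest sum of the 6 liver and endoderm markers, 359 CPM against a median of 1.68. All 3 of these markers that were tested were above 0 in Nipbl_het, with a median of 2.73 and 0 called, and the part of such cells was not tested. In double_het 5 passed with 2 surrogate variables and 2 without the library labelled Nipbl_het replicate 2 (Sphk1 and Sgpp1). The averaged effect had 6 with no set term, 5 with the replicate block in place of the set number, 7 with 2 surrogate variables (where 2130 of all genes were called, against 605) and 3 without that library. It had 1 with the replicate block beside the set number, with either other filter on low counts, without set 6 or in 17 fits with a single library left out, and 0 without set 2 or without set 5. In double_het the count was 0 wherever the Sphk1 call was lost. The 3 highest per length in wild-type, the ceramide enzymes Degs1 and Cers2 and the LPA-using Agpat1, stood at 41.9, 22.6 and 35.9 CPM per kilobase of exon, with changes of -0.05 to 0.07 in both genotypes and 0 calls. Sphk1, which makes S1P, rose in double_het, where 1.77% of all genes were called higher: libraries ran from 1.73 to 4.62 CPM in wild-type (median 2.58) and from 2.33 to 6.60 in double_het (median 4.54). Of 9 double_het libraries 8 lay above the wild-type mean and 4 above every wild-type library. The log2 change was 0.69 (SE 0.18, edgeR adjusted p 0.0260). The call was lost without any of sets 1, 2, 5 or 6 and with only those 2 genotypes in the fit. It was also lost without wild-type replicate 9 or double_het replicate 5, 6, 8 or 9. In the fits that lost the call the log2 change ran from 0.61 to 0.84. In Nipbl_het Sphk1 changed by 0.27 (SE 0.17, adjusted p 0.466).

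S1pr4 and S1pr5, S1P receptors best known from immune cells and, for S1pr5, from oligodendrocytes, rose with the averaged Nipbl effect (2.67% of all genes called higher) by 0.67 (SE 0.16, edgeR adjusted p 0.00983) and 0.58 (SE 0.17, edgeR adjusted p 0.0380) on the log2 scale. Both were low. S1pr4 had 7 to 27 raw counts per library and averaged 0.324 ± 0.065 CPM among wild-type libraries (SD, n = 10), 0.314 ± 0.0905 in Isl1_het, 0.503 ± 0.148 in Nipbl_het and 0.477 ± 0.149 in double_het (SD, n = 9 each). S1pr5 averaged 0.896 ± 0.235 CPM among wild-type libraries (SD, n = 10), 0.860 ± 0.320 in Isl1_het, 1.43 ± 0.339 in Nipbl_het and 1.21 ± 0.346 in double_het (SD, n = 9 each). For both genes the Nipbl +/- groups overlapped wild-type. The S1pr4 call held with each of the 37 libraries left out in turn, and the S1pr5 call was lost in 17 of these fits. Both were lost without set 2 or without set 5, with values of 0.53 to 0.65 for S1pr4 and 0.41 to 0.74 for S1pr5. The S1pr5 call was also lost with the replicate block beside the set number (adjusted p 0.0723), with no filter on low counts (adjusted p 0.0530) and without set 6 (adjusted p 0.0646). Of 6 macrophage and megakaryocyte markers 0 were called, all 6 had changes above 0 for the averaged Nipbl effect, and their sum ran from 34.9 to 72.5 CPM in wild-type and up to 245 in the library labelled Nipbl_het replicate 2; the part of such cells was not tested.

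Of 15 relatives in the EDG and P2Y-like families, 8 were tested. The 2 that passed for the averaged Nipbl effect, beside 4.02% of all genes (2.67% higher), were S1pr4 and S1pr5, described above. Of the relatives, the nucleotide receptors P2ry1 and P2ry2 stood at 1.07 and 0.238 CPM per kilobase of exon in wild-type and S1pr5 at 0.358, the 3 highest.

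Genes beside the members were compared in the same fit. Of 54 neighbours, the 3 nearest tested protein-coding genes on each side of each member, 0 were called in Nipbl_het or double_het against wild-type, beside 1.71% and 2.60% of all genes. The 6 neighbours of Lpar3, among them Mcoln2 at 25.4 kilobases and Mcoln3 at 79.2, ran from -0.21 to 0.33 for the averaged Nipbl effect, where Lpar3 stood at -0.39. For that effect, with 4.02% of all genes called, 1 of the 54 was called, Pbx4, a homeobox gene 1.39 kilobases beyond Lpar2, which rose by 0.61 on the log2 scale (SE 0.16, edgeR adjusted p 0.0181); Lpar2 itself stood at 0.25 (SE 0.09, adjusted p 0.109). Gmip, on the other side of Lpar2 at 0.559 kilobases, stood at 0.07.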

How the data were processed

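Per the submitters' processing notes, reads were handled with STAR and featureCounts on GRCm38 (mm10); versions, annotation, strand setting and filters are not given in the sources used here. The authors deposited raw counts, whole numbers per gene symbol and library, which were used unchanged, and 0 other value columns were present. Per the labels' protocols, total RNA was made into NEBNext Ultra II libraries. Depth ran from 23.4 to 51.0 M counts.

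A low-count filter (filterByExpr per genotype, at least 10 counts and a total of 15) came first, then TMM scaling and the quasi-likelihood test of edgeR (edgeR 4.0.16, limma 3.58.1, R 4.3.3) in 1 model of the 37 libraries, whose terms were genotype and set number. Tests were two-sided, with Benjamini-Hochberg adjustment over 15046 genes and a threshold of 0.05. SE came from the F statistic, and intervals are 1.96 SE, approximate. No 2 libraries of a genotype agreed within sampling noise: chi-square per degree of freedom was at least 7.46 in 153 pairs. Log2 CPM for correlations and within-set means used a prior count of 2. Lengths came from GENCODE M21, and start regions from RefSeq GRCm38.p6. The fit was also run on simulated counts that held no set effects and no outlying library. That run therefore says nothing of how the fit handles either.

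Members and gene lists were chosen with earlier results of these data known. All 9 members are named throughout. Of the pathway and family lists reported, genes past the threshold in any comparison and the 3 highest per length are named; markers called against wild-type in a Nipbl +/- genotype, neural tube markers of the averaged effect and pathway genes called in other fits were named after their values were seen. Genes like a member are the 5 nearest for Lpar3 and the 3 nearest (the nearest 1 where r was under 0.7) for the others. Lists of genes below the receptors are not reported here. Alternatives were DESeq2 1.42.0, other scalings and filters, other covariates (among them 2 surrogate variables, sva 3.50.0), sets left out and each library left out. Neighbours, co-variation and alternatives for pathway genes were added after seeing the data. Python 3.11.15, pandas 2.3.3, numpy 2.4.6 and matplotlib 3.10.9 were used for the rest.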

Additional observations from a re-analysis of the deposited data

Results flagged for a closer look

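Within each genotype, single libraries far from the rest were looked for among the 9 members, Nipbl and Isl1, by the gap to the nearest library relative to the range of the group (Dixon's 95% limit). Of 44 groups of libraries 6 held one, where chance gives about 1 in 20. Lpar3 in double_het replicate 8 was low, at 28.2 CPM with the next library at 36.1. In the same library Enpp2 was high, at 1.58 CPM with the next at 0.585, and Enpp2 was also high in wild-type replicate 8, at 0.953 CPM with the next at 0.623. S1pr2 in the library labelled Nipbl_het replicate 2 was low, at 16.5 CPM with the next at 30.3, and Nipbl there was high, at 72.4 CPM with the next at 44.9. Isl1 in wild-type replicate 7 was high, at 13.0 CPM with the next at 8.81.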

How the results depend on the processing

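No result named here turned its direction while past the threshold. For Lpar3, chosen for its difference in these same libraries, the values under the alternatives are a description and no support: its log2 change ran from -0.49 to -0.39 in Nipbl_het and from -0.55 to -0.45 in double_het, and with single libraries left out from -0.46 to -0.40 and from -0.53 to -0.46. Against wild-type in Nipbl_het, 2 members in place of 1 passed with DESeq2, with DESeq2-style size factors and with 2 surrogate variables; leaving out single libraries gave 1 to 2. In double_het against wild-type 2 passed with no set term or with the replicate block in place of the set number, and 3 with 2 surrogate variables; leaving out single libraries gave 1 to 2. In double_het against Isl1_het 2 passed with 2 surrogate variables and 0 without set 2 or without set 5, where Lpar3 stood at -0.31 and -0.34; leaving out single libraries gave 1 to 2. For the averaged Nipbl effect 3 passed with no set term, with the replicate block in place of the set number, with 2 surrogate variables or without set 5; leaving out single libraries gave 1 to 2. Set number was associated with 1 member without set 2 and with 2 without set 6; leaving out single libraries gave 3 to 5. Counts over all genes moved in these fits too: with 2 surrogate variables 1403 in place of 258 in Nipbl_het, 1737 in place of 391 in double_het, 754 in place of 144 against Isl1_het and 2130 in place of 605 for the averaged effect, and with no set term 467, 570, 123 and 1045. The causes were not tested. In the other 4 comparisons 0 members passed under every alternative.

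The scaling alternatives moved the median change of all genes by at most 0.0164, and any alternative by at most 0.0226. Per kilobase of coding sequence the wild-type levels were 75.4 CPM for S1pr1, 49.7 for Lpar3, 32.2 for S1pr2, 18.1 for S1pr3, 12.5 for Lpar1, 11.0 for Lpar6, 10.0 for Lpar2, 6.52 for Lpar4 and 0.209 for Enpp2.

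Replicate numbers are shared between genotypes, but same-numbered libraries did not deviate together: over 54 pairs the median r was 0.0279 and 17 exceeded 0.1, and 3 of 37 libraries matched best with their own number. The replicate block beside the set number left 1 member past the threshold in double_het. Enpp2, with 7 to 42 counts per library, limits any statement on the ligand enzyme.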
